A study of Mus musculus with 24 samples.

Results

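Cytosolic ribosomal protein genes were followed across 24 RNA-seq libraries of lymphoid cells sorted from the mouse small intestine. Members were the protein-coding genes whose symbol is Rpl or Rps followed by a digit, together with Rplp0, Rplp1, Rplp2 and Rpsa. Genes of the Rps6k kinase family were left out. The rule took 94 genes of the 55487 in the table, and every one of the 94 was found in the mouse annotation. They comprised 46 genes for proteins of the large subunit, 31 for proteins of the small subunit, 8 paralogues (Rpl3l, Rpl7l1, Rpl10l, Rpl22l1, Rpl36al, Rpl39l, Rps27l and Rps27rt), 8 genes with retrogene or pseudogene names (such as Rpl36a-ps1) and Rps19bp1, which encodes a binding partner of a ribosomal protein and not a ribosomal protein. The 77 large and small subunit genes are called the core genes here. A filter on low counts left 90 members for testing. Rps18-ps6 had no count in any library, and Rpl10l, Rpl3l and Rps23rg1 were too low.

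The cytosolic ribosome translates nuclear-encoded mRNA. Its small subunit decodes the message and its large subunit forms the peptide bonds. Ribosomal proteins are made in near equal numbers, and their genes are among the most strongly expressed in any dividing or secreting cell. Their mRNAs begin with a cytosine followed by a run of pyrimidines (the 5′ terminal oligopyrimidine, or TOP, tract), through which the kinase complex mTORC1 controls their translation. In lymphocytes the production of ribosomes rises with activation and growth.

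Groups were formed by sorted population and genotype, with 3 libraries in each of 8 groups. The labels name the populations NKp46, CCR6, DN and ILC1. ILC1 are innate lymphoid cells that make interferon gamma, NKp46 is a natural cytotoxicity receptor found on some ILC3, and CCR6 marks the ILC3 that resemble lymphoid tissue inducers. What DN stands for is not given in the sources used here. Cells came from the lamina propria of mice aged 8 to 12 weeks. All mice carried floxed Nr1d1 and Nr1d2, the genes of the clock repressors REV-ERBα and REV-ERBβ. Mice labelled DKO also carried Vav1-Cre, whose promoter is active in blood cells generally and not in these lymphocytes alone, and the mice labelled WT were littermates with the floxed alleles and no Cre named. No label ties a library to an animal, and p-values therefore measure only the spread between these libraries, which may be technical.

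The libraries held between 12.8 M and 84.4 M counts each (M, 1e6). WT ILC1 library 2 stood apart, with 9.39% of its counts in ribosomal RNA genes against 0.877 to 4.27% in the other libraries. Markers followed the labels only in part. Mean Ncr1, which encodes NKp46, was 1613.9 CPM (counts per 1e6 counts) in WT ILC1, 824 in WT NKp46, 55.5 in WT DN and 9.87 in WT CCR6, and mean Ccr6 was 1399.6 in WT CCR6 and at most 40.7 in the other WT populations. Cd3e, a T cell receptor component, averaged 574 CPM in WT DN against 12.9 in WT NKp46. The floxed genes were higher in the libraries labelled DKO: Nr1d1 spanned 49.8 to 643 CPM over the WT libraries and 458 to 1772.4 CPM over the DKO libraries, and Nr1d2 13 to 67.1 and 36.1 to 149. Counts over a whole gene do not check the loss of an exon whose position the labels do not give, and every direction given for DKO rests on the labels.

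The core genes differed widely in their level per length. Over the 24 libraries the median core gene measured 722 CPM per kilobase of mRNA, with a 10th to 90th percentile range of 233 to 1764.3. The length was that of 1 annotated transcript per gene, with a median of 780 bases. It was 345 bases for Rps27, 3706 for Rps20 and 5179 for Rps15a. Which transcripts the cells made was not tested, and the spread and the order of genes depend on this choice. Rps27 stood highest at 3526.8 CPM per kilobase, followed by Rpl13 at 3358.4 and Rps14 at 3146.9. Rps10 stood lowest at 4.67 CPM per kilobase, and Rpl24 measured 7.59 and Rpl13a 35.6. These 3 genes share 28.7%, 47.0% and 35.4% of their exon bases with other genes on either strand. The gene that shares most lies on the same strand in each case (Gm49804, Gm28037 and Gm45713). Rpl35 and Rpl23a share more, 66.2% and 62.3%, the largest part with a gene on the other strand. Rpl35 had 370514 counts over the 24 libraries and Rps10 had 3877. The level that the counts of such genes can show is therefore uncertain. So is the level of genes whose reads also match one of the 304 ribosomal protein pseudogenes in the table. The core genes moved together across libraries: the correlation of a gene's log2 profile with the median core profile over the 24 libraries had a median of 0.92 and was over 0.8 for 64 of 77 genes. The points of these correlations share library and depth. Because most core genes moved together, a count of members in a comparison is not a count of independent results. The lowest values belonged to Rpl24 (0.20), Rpl10 (0.28), Rpl15 (0.50) and Rps10 (0.53). Paralogues had lower values, with correlations of -0.26 for Rpl39l, -0.17 for Rps27l, -0.16 for Rpl7l1, 0.01 for Rpl36al, 0.40 for Rpl22l1 and 0.77 for Rps27rt.

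Start site sequence was available from RefSeq (GRCm38.p6) for 67 of the 94 members, in 79 windows of 300 bases from 250 before to 50 after the start. A pyrimidine tract was defined as a C followed by at least 4 more pyrimidines on the sense strand, with that C within 5 bases of the annotated start. It was present in 43.3% of 67 core windows (57 genes), against 18.3% of 32851 windows of all genes. The stretches from 15 bases before to 15 bases from the start are shown 5′ to 3′ for genes the results turn on, with the tract in capitals. The first 3 are core genes with a tract, Rps27 and its relatives differ in it, and Rplp0, Rps7 and Rpl10 have no such tract within this distance.
Rpl14 (chr9:120571502-120571531, plus strand): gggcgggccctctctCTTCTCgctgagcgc
Rps18 (chr17:33955651-33955680, minus strand): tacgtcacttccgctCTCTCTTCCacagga
Rps6 (chr4:86857353-86857382, minus strand): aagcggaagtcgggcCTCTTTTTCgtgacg
Rps27 (chr3:90213634-90213663, minus strand): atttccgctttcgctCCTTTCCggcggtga
Rps27rt (chr9:114982725-114982754, minus strand): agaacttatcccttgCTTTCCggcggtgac
Rps27l (chr9:66946071-66946100, plus strand): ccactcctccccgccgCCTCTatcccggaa
Rplp0 (chr5:115559452-115559481, plus strand): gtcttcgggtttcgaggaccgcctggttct
Rps7 (chr12:28635939-28635968, minus strand): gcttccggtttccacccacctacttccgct
Rpl10 (chrX:74270801-74270830, plus strand): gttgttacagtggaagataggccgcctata

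The 30-base windows of Rps27 and its retrotransposed copy Rps27rt share a run of 14 bases across the tract, whereas Rps27 and Rps27l share at most 5. Other motifs were searched on both strands of the 300-base windows. CCGGAAG, the core of sites bound by ETS factors such as GABP, was in 37.3% of core windows and 8.86% of all windows. ATGGCG, a part of the YY1 motif, was in 28.4% and 8.93%, and GGGCGG, the GC box, in 61.2% and 35.7%. AGGTCA, the hexamer bound by nuclear receptors that include the REV-ERBs, was in 10.4% of core windows and 16.3% of all windows. CACGTG, the E-box, was in 11.9% and 7.15%, and TATAAA in 8.96% and 13.6%. Motifs can overlap each other, and a match is only a run of letters.

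In WT cells the members took the smallest share of counts in NKp46 cells and the largest in DN cells. The 94 genes held 4.44, 4.31 and 4.28% of all counts in the 3 WT NKp46 libraries, 5.53, 5.40 and 4.66% in WT CCR6, 6.54, 6.33 and 5.26% in WT ILC1, and 6.94, 7.27 and 6.53% in WT DN. NKp46 libraries lay below all 9 others, while the ranges of CCR6 and ILC1 overlapped, as did those of ILC1 and DN. The means were 4.34% ± 0.0832, 5.2% ± 0.469, 6.04% ± 0.687 and 6.91% ± 0.372 (SD, n = 3). Both subunits followed this order, from 1.85% to 3.01% for the small and from 2.43% to 3.82% for the large. The 78 genes of mitochondrial ribosomal proteins, which serve the separate ribosome of that organelle, held 0.352 to 0.443% of counts, and among WT populations they were lowest in ILC1, at 0.352 to 0.376%. In bulk libraries a larger share can reflect more RNA per cell of one type or more cells of that type, and these cannot be told apart.

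**Figure D1:**
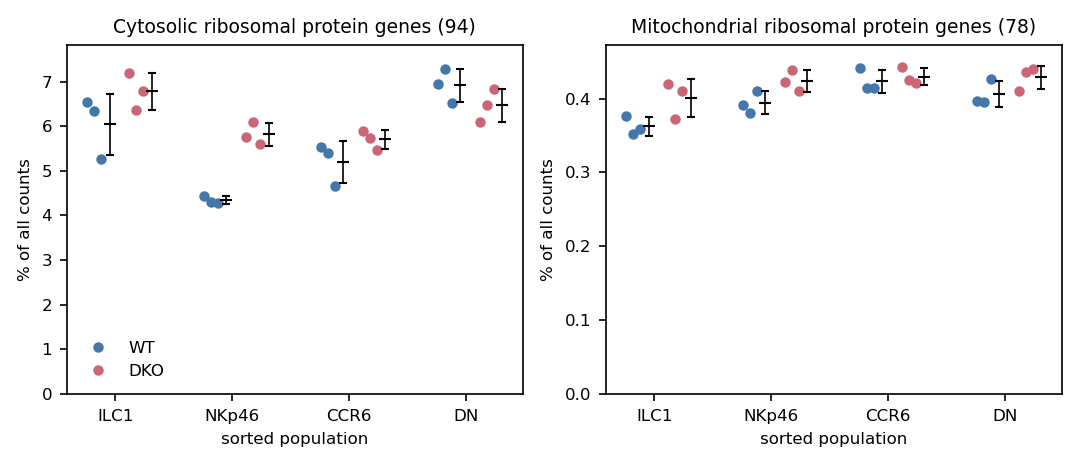
Share of all counts (%) held by the 94 cytosolic (left) and the 78 mitochondrial (right) ribosomal protein genes in each library, by sorted population; each point is 1 library and the bars show the mean and SD of 3. In the left panel the 3 WT NKp46 libraries, at 4.28 to 4.44%, lie below every other library, and the 3 DKO NKp46 libraries lie at 5.59 to 6.10%.

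Against WT NKp46 cells, 73 of the 90 tested members were higher in WT DN cells and 0 were lower, where 2.25% of all genes tested were higher and 0.723% lower. (A call is an adjusted p under 0.05 in the quasi-likelihood test of edgeR, adjusted by Benjamini-Hochberg over 21286 genes.) The median log2 fold change of the members was 0.68, against -0.01 for all genes. Of the core genes, 29 of 31 small subunit and 40 of 46 large subunit genes were called. In 84 of the 90 members all DN libraries lay above all NKp46 libraries, as they did in 12.7% of all genes, and in 0 members they lay below (10.2% of all genes). Among the members with the smallest adjusted p were Rps18, a small subunit protein, at 1438.9 ± 136 CPM in DN against 859 ± 41.0 in NKp46 (log2 fold change 0.74 ± 0.101 SE, adjusted p = 0.0001), and Rpl36a, Rps7 and Rps9, which were higher by 0.78 to 1.00. Markers of other cells moved along this contrast. Of 16 T cell markers 14 were higher in DN and 0 lower, with summed levels of 4245.7 to 4538.6 CPM in DN and 1456.2 to 1542.9 in NKp46, and Cd3e and Trac were above 0 in every library. Of 8 ILC2 markers 4 were higher, with sums of 1231.5 to 1796.5 against 458 to 493 CPM. B and plasma cell markers (1 of 8 higher) summed to 320 to 408 against 190 to 275 CPM, and stromal and endothelial markers (1 of 10 higher) to 159 to 185 against 125 to 143. Of the latter, Pdgfrb averaged 60.2 CPM in DN and 17.2 in NKp46. Myeloid markers (1 of 12 lower) summed to 335 to 377 against 419 to 480 CPM. Of 10 ILC1 and NK cell markers 3 were higher and 2 lower, with overlapping sums (2138.9 to 2788.0 against 1988.8 to 2559.5 CPM). Of 10 ILC3 markers 3 were higher and 1 lower (3476.6 to 3774.8 against 3802.9 to 4499.9 CPM), and of 10 epithelial markers 1 was higher (23.7 to 27.8 against 12.0 to 28.9 CPM). Their part in the result was not tested.

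WT ILC1 cells also exceeded WT NKp46 cells in most members. Here 68 of 90 were higher and 2 lower, against 5.13% and 5.6% of all genes, and the median log2 fold change was 0.59. In 76 members all ILC1 libraries lay above all NKp46 libraries (9.48% of all genes). Rpl36 led, with 891 ± 160 CPM in ILC1 and 492 ± 17.1 in NKp46 (log2 0.86 ± 0.127, adjusted p = 7.4e-05). Rps3, Rpl12 of the stalk base and Rps15a were also among the first, at 0.67 to 0.84. The 2 that fell were the paralogues Rps27l and Rpl39l, described below. Without WT ILC1 library 2, 64 members were called with a median of 0.53. When only the 2 groups compared were fitted, 2 members passed, and 19 when library 2 was also left out. Of 16 T cell markers 10 were higher and 1 lower in ILC1 (sums of 2226.3 to 3192.4 CPM), of 12 myeloid markers tested 4 were higher (sums of 461 to 1004.5 against 419 to 480), and of 10 ILC3 markers 6 were lower (1129.3 to 1505.2 against 3802.9 to 4499.9 CPM). Myeloid sums overlapped. Of 10 ILC1 and NK cell markers 9 were higher, with sums of 6911.2 to 11090.5 against 1988.8 to 2559.5 CPM. Epithelial markers (1 of 10 higher) summed to 73.5 to 76 CPM in ILC1 and 12.0 to 28.9 in NKp46. B and plasma cell markers (1 of 8 higher, 1 lower) summed to 423 to 682 against 190 to 275 CPM, and stromal and endothelial markers (2 of 10 higher, 1 lower) to 156 to 254 against 125 to 143. Their part in the result was not tested.

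CCR6 cells lay between. Against WT NKp46, 5 members were higher in WT CCR6 cells and 0 lower (2.82% and 3.41% of all genes), with a median of 0.20, and all CCR6 libraries lay above all NKp46 libraries for 23 members (14.8% of all genes). These 5 were Rpl10, Rpl21, Rpl26, Rps9 and Rps6, the small subunit protein that mTORC1 signalling phosphorylates. The count was 2 or 3 without WT CCR6 library 1 or 2 or any 1 of the WT NKp46 libraries, 9 without WT CCR6 library 3 and 10 without WT ILC1 library 2. Against WT CCR6, 52 members were higher in WT DN cells and 1, Rpl10, was lower (3.89% and 1.95% of all genes). Rps23, Rpsa, Rps7 and Rpl32 were among those with the smallest adjusted p values there, with log2 fold changes of 0.62 to 0.73, and the median was 0.48. Without WT CCR6 library 3, 19 members remained past the threshold in either direction, without WT DN library 2, 25, and without WT DN library 1, 30. Against WT CCR6, 43 were higher in WT ILC1 and 3 lower (9.33% and 9.99%), with a median of 0.38, and 24 in all were called without WT CCR6 library 3. Between WT DN and WT ILC1 cells only 2 paralogues, Rps27l and Rpl39l, were called, both higher in DN (4.73% of all genes were higher and 2.88% lower). That count was 10 without WT ILC1 library 1 and 1 without WT ILC1 library 3 or WT DN library 1. The WT comparisons share groups with each other and are not independent.

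In NKp46 cells the members were higher in the libraries labelled DKO. The share of counts was 5.76, 6.10 and 5.59% in DKO against 4.44, 4.31 and 4.28% in WT NKp46. Every DKO library lay above every WT library, with means of 5.81% ± 0.263 and 4.34% ± 0.0832 (SD, n = 3). Of 90 members 27 rose and 0 fell, against 1.99% and 2.17% of all genes, and the median log2 fold change was 0.40 (all genes -0.02). All DKO libraries lay above all WT libraries for 72 members and below for 2, against 9.76% and 11.7% of all genes. Those that rose were 14 of 31 small subunit genes (median 0.43), 10 of 46 large subunit genes (median 0.38) and 3 with retrogene or pseudogene names. Rps10 had the largest difference among core genes, 0.80, but was low (2.55 to 3.49 CPM in WT and 4.26 to 6.84 in DKO) and was not called.

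Rps19 (ENSMUSG00000040952; GRCm38 chromosome 7, 24884371 to 24889806, plus strand) encodes a protein of the small subunit head that is needed to mature its rRNA. It measured 1024.3, 882 and 805 CPM in the WT NKp46 libraries and 1534.7, 1563.2 and 1318.8 in DKO. The groups did not overlap. Its log2 fold change was 0.70 ± 0.132 (adjusted p = 0.0023). Rps7 (chromosome 12, 28630854 to 28635953, minus strand), another small subunit protein needed for rRNA maturation, measured 808, 826 and 746 CPM in WT and 1241.1, 1301.0 and 1129.2 in DKO. All 3 DKO libraries were the higher, by 0.63 ± 0.118 on the log2 scale (adjusted p = 0.0023). Rps28 (chromosome 17, 33819027 to 33824562, minus strand), which sits near the mRNA exit of the small subunit, measured 196, 197 and 189 CPM in WT and 287, 320 and 273 in DKO, again without overlap (0.59 ± 0.126, adjusted p = 0.0066).

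On the large subunit, 2 genes of the stalk that recruits elongation factors rose, Rplp0 and Rplp1. The stalk gene Rplp2 (0.45 ± 0.137, adjusted p = 0.067) and Rpl12 of the stalk base (0.38 ± 0.129, adjusted p = 0.11) were not called. Rplp0 (chromosome 5, 115559467 to 115563727, plus strand), which anchors the stalk, measured 1383.1, 1181.3 and 1142.7 CPM in WT NKp46 and 2252.6, 1909.3 and 1663.3 in DKO. The lowest DKO library lay above the highest WT library, and the log2 fold change was 0.65 ± 0.139 (adjusted p = 0.007). Rplp1, an acidic stalk protein, averaged 1000.9 ± 127 CPM in DKO and 633 ± 22.6 in WT (log2 0.66 ± 0.148, adjusted p = 0.01). Rpl36a (chromosome X, 134585654 to 134588062, plus strand) measured 144, 142 and 128 CPM in WT and 204, 225 and 211 in DKO (0.63 ± 0.138, adjusted p = 0.0084). Rpl36a-ps1 (chromosome 14, 98993870 to 98994318, minus strand, 1 exon), a copy of Rpl36a, measured 10.8, 12.0 and 13.4 CPM in WT and 23.7, 24.9 and 21.5 in DKO (0.96 ± 0.218, adjusted p = 0.012). Copy and parent moved the same way, and reads of the parent assigned to the copy cannot be told apart from its own. Others that rose included Rps3, Rps18, Rps20, Rps3a1, Rps14, Rps2, Rps9, Rps23 and Rps25 of the small subunit, Rpl14, Rpl10a, Rpl8, Rpl34, Rpl37, Rpl23 and Rpl35a of the large subunit, and the copies Rpl9-ps6 and Rpl10-ps3, by 0.37 to 0.76.

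The count of members called in NKp46 depended on single libraries, while the median did not move far. It was 11, 4 and 26 without DKO NKp46 library 1, 2 or 3 and 16, 11 and 5 without WT NKp46 library 1, 2 or 3, and the median stayed between 0.33 and 0.44. In DKO NKp46 libraries 3.04 to 4.27% of counts lay in ribosomal RNA genes and 0.441 to 0.516% in ribosomal protein pseudogenes, against 1.55 to 2.86% and 0.288 to 0.337% in WT NKp46. Of 16 T cell markers 3 were higher in DKO and 0 lower (sums of 1562.9 to 1909.3 against 1456.2 to 1542.9 CPM). Lat averaged 138 CPM in WT and 486 in DKO NKp46, within mean sums of 1492.6 and 1743.8, so that Lat rose by more than the sum. Of 10 stromal and endothelial markers 1 was higher (236 to 262 against 125 to 143 CPM), with Pdgfra at 0 in the WT libraries. Most of that rise was Pdgfrb, which averaged 17.2 CPM in WT and 107 in DKO, within mean sums of 131 and 246. Of 10 ILC3 markers 2 were higher and 3 lower (2103.1 to 2316.5 against 3802.9 to 4499.9 CPM). Of 8 B and plasma cell markers tested 1 was higher and 1 lower, with sums of 326 to 794 CPM in DKO that all lay above the 190 to 275 CPM of WT. Myeloid markers (0 of 12 higher, 1 lower) summed to 315 to 370 against 419 to 480 CPM. ILC1 and NK cell markers (1 of 10 higher, 1 lower) summed to 1406.1 to 1791.1 against 1988.8 to 2559.5 CPM. Epithelial markers (0 of 10 called) summed to 19.9 to 39.6 against 12.0 to 28.9 CPM, with Fabp2, Vil1 and Alpi at 0 in the DKO libraries. Of 8 ILC2 markers 0 were higher and 1 lower (480 to 537 against 458 to 493 CPM). The part of each in the result was not tested.

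**Figure D2:**
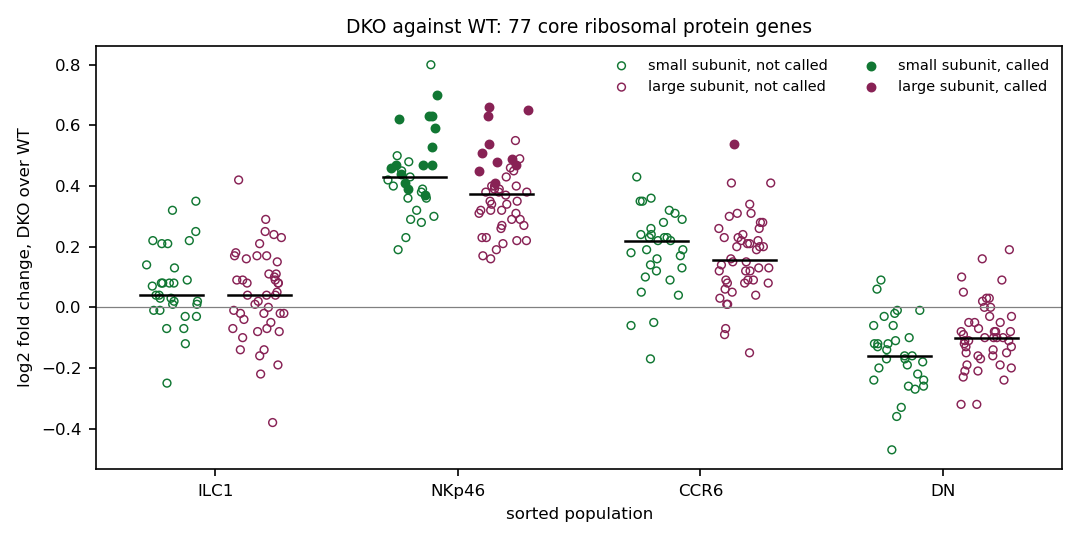
Log2 fold change of DKO over WT for each of the 77 core genes, small and large subunit side by side, in the 4 sorted populations; filled points are genes called at an adjusted p under 0.05 and the bars are medians. In NKp46 cells every point lies above 0 and 24 are filled, in CCR6 cells 1 is filled, and in ILC1 and DN cells none is.

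The other populations showed 1 called member each. In CCR6 cells this was Rplp0, where 1.93% of all genes were higher and 2.04% lower. It measured 1365.4, 1331.6 and 1069.5 CPM in WT CCR6 and 2056.2, 1745.2 and 1683.1 in DKO, without overlap (0.54 ± 0.139, adjusted p = 0.025). The call was lost, at an adjusted p of 0.06 to 0.20, without DKO CCR6 library 1 or 2 or WT CCR6 library 2 or 3. The median over members was 0.19, and 81 of 90 lay above 0. All DKO libraries lay above all WT libraries for 19 members (11.5% of all genes). In CCR6 cells the share was 5.53, 5.40 and 4.66% in WT and 5.90, 5.74 and 5.47% in DKO, and the ranges overlapped. Summed T cell markers were 1144.0 to 1384.2 CPM in WT and 2973.2 to 3123.3 in DKO, of which Lat made up 252 and 2151.3 on average. Stromal and endothelial sums were 216 to 261 in WT and 314 to 397 in DKO. Epithelial sums were 12.5 to 15.1 and 26.4 to 43.1. Lower in DKO were ILC3 (7821.5 to 9218.7 and 5330.3 to 6025.8) and ILC1 and NK sums (623 to 970 and 437 to 536). So were myeloid (360 to 426 and 269 to 331) and ILC2 sums (466 to 522 and 387 to 453). B and plasma cell sums were 144 to 724 and 76.7 to 140. The part of these markers in the result was not tested.

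In DN cells most members lay lower in DKO, but none was called lower. The share was 6.94, 7.27 and 6.53% in WT and 6.10, 6.47 and 6.84% in DKO, with overlap. The median log2 fold change was -0.12, with 75 of 90 members below 0, and all DKO libraries lay below all WT libraries for 16 members, against 12.8% of all genes. The called member was the paralogue Rps27l, which was higher (1.49% of all genes were higher and 1.34% lower). By an unadjusted p under 0.05 there were 8 members, 2 higher and 6 lower, where 12.2% of all genes had such a p. DKO DN libraries had less T cell (3484.2 to 3685.0 CPM) and ILC2 (657 to 983 CPM) marker signal than WT DN, whose sums stand above. Their ILC1 and NK sums were also lower, at 1375.5 to 1461.3 CPM. Stromal and endothelial (293 to 369 CPM) and epithelial sums (46.4 to 64.1 CPM) were higher than in WT DN. Sums of the remaining lists overlapped. Within the T cell sum, Lat averaged 458 CPM in WT DN and 1668.5 in DKO DN. Every other T cell marker averaged lower in DKO DN, such as Cd3e (574 to 181 CPM) and Trac (225 to 74.0 CPM). The part of these markers in the difference was not tested.

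In ILC1 cells the median was 0.05 and the share was 6.54, 6.33 and 5.26% in WT against 7.19, 6.37 and 6.78% in DKO, with overlap. The sign of the median was not stable, ranging from -0.04 to 0.11 when single libraries were left out. The called member was Rpl39l (0.78% of all genes were higher and 0.277% lower), and 10 members, 9 higher and 1 lower, had an unadjusted p under 0.05, as had 13.5% of all genes. Summed ILC3 markers were 1129.3 to 1505.2 CPM in WT and 937 to 999 in DKO. Myeloid sums were 461 to 1004.5 and 332 to 380, and B and plasma cell sums 423 to 682 and 716 to 1135.4. Sums of the remaining lists overlapped. The part of the markers in the result in ILC1 was not tested.

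Averaged over the 4 populations, 13 members were higher in DKO and 0 lower, where 4.81% and 5.99% of all genes were, and the median was 0.12. Rplp0 led at 0.44 ± 0.0695 (adjusted p = 0.0001), with a positive difference in all 4 populations: 0.65 in NKp46, 0.54 in CCR6, 0.42 in ILC1 (adjusted p = 0.19) and 0.16 in DN (adjusted p = 0.78). Rps27l (0.34 ± 0.0594, adjusted p = 0.00036), Rps19 (0.38 ± 0.0658, adjusted p = 0.00037), Rps7 (0.30 ± 0.0586, adjusted p = 0.001) and Rpl10a (0.29 ± 0.0615, adjusted p = 0.0026) came next. The count was 20 to 24 without WT ILC1 library 1 or 2, DKO NKp46 library 3 or DKO CCR6 library 3, and without DKO NKp46 library 2, DKO DN library 3 or WT DN library 3 it was 8. This average reuses the libraries of the comparisons within populations. It also treats the libraries of different populations as independent. Whether same-numbered libraries came from the same mouse is unknown. If they did, the standard errors and adjusted p values of the average could be too small.

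Whether the genotype effect differed between populations was tested directly. The effect in NKp46 minus that in DN had a median of 0.52 over the members, with 87 of 90 above 0. At an unadjusted p under 0.05 there were 67 members, 65 above 0 and 2 below, against 10.1% of all genes. Most core genes moved together across libraries, so these members are not independent observations of the difference. The test called 2, Rps28 (0.80 ± 0.178, adjusted p = 0.047) and Rpl36a-ps1 (1.38 ± 0.307, adjusted p = 0.046), where 0.352% of all genes were higher and 0.146% lower. In DN cells Rps28 measured 391, 366 and 301 CPM in WT and 292, 323 and 307 in DKO, and Rpl36a-ps1 measured 25.4, 24.3 and 18.2 in WT and 16.3, 16.1 and 18.3 in DKO. The DN groups overlapped for both genes. No member was called when any 1 library of these 4 groups other than WT DN library 3 was left out, and 3 were called without that library and 17 without WT ILC1 library 2. Other settings gave counts from 0 to 38. The effect in NKp46 minus that in ILC1 had a median of 0.33 and 1 call, Rpl39l, in the opposite direction (0.559% of all genes were called). The count was 0 without DKO NKp46 library 1 and 9 without WT ILC1 library 3. Against CCR6 the median was 0.24, with 0 members called by edgeR, 7 at an unadjusted p under 0.05 (7.64% of all genes) and 0.423% of all genes called. A test of any difference among the 4 populations called Rpl39l alone of the members (1.37% of all genes), with 50 at an unadjusted p under 0.05 (12.0% of all genes). Without WT ILC1 library 3 it called 10. These 3 differences share the NKp46 libraries.

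The same values can be read as differences between populations within a genotype. ILC1 exceeded NKp46 cells by a median of 0.59 in WT and 0.23 in DKO, CCR6 by 0.20 in WT and -0.02 in DKO, and DN by 0.68 in WT and 0.18 in DKO. The WT value was the larger for 86, 83 and 87 of 90 members. In DKO cells 6 members were higher in ILC1 than in NKp46 and 1 lower (2.47% and 2.3% of all genes). The 6 included Rpl4, which lines the exit tunnel, Rpl13, Rpl27, Rps13 and Rpl39l, and the lower one was Rps27l. None was called without DKO ILC1 library 1 or DKO NKp46 library 3, and 15 were without WT ILC1 library 2. Between DKO CCR6 and DKO NKp46, 2 were called, Rpl10 and Rpl39l, both higher in CCR6 (2.47% of all genes higher, 2.33% lower). The count was 0 without DKO CCR6 library 1 and 1 without any other library of these groups. Between DKO DN and DKO NKp46, edgeR called 0 (0.723% of all genes), with 22 at an unadjusted p under 0.05 (11.6% of all genes) and 2 called by DESeq2. Mean shares spanned 4.34 to 6.91% over the 4 WT populations and 5.7 to 6.78% over the 4 DKO populations.

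**Figure D3:**
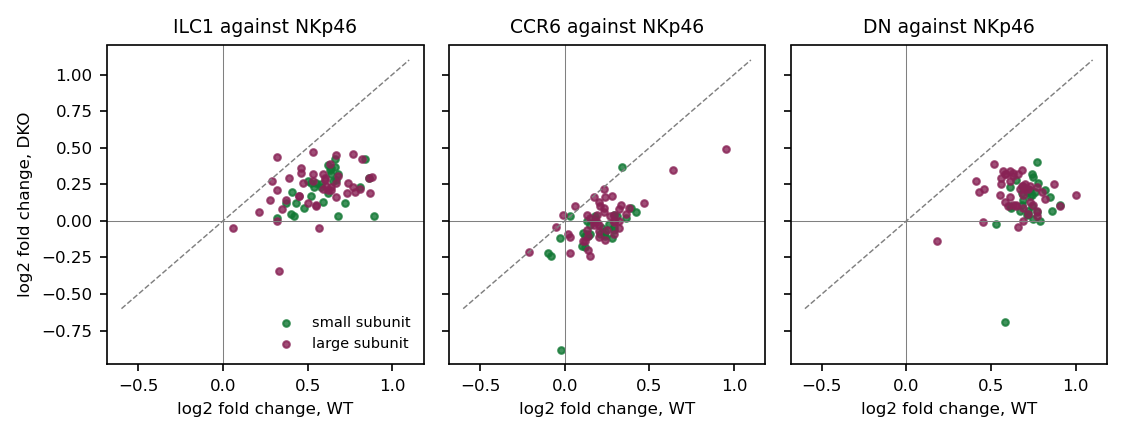
Log2 fold change of ILC1, CCR6 and DN against NKp46 cells for each of the 77 core genes, in WT on the horizontal and in DKO on the vertical axis; the dashed line marks equal change. Most points lie below the line in each panel, and in the panel for DN the WT values of all core genes are above 0.

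Rpl10 departed from the other core genes. This large subunit protein (chromosome X, 74270812 to 74273135, plus strand) joins the subunit late in its assembly. Rpl10 shares 6.7% of its exon bases with other genes, the largest part with Snora70. It measured 516, 513 and 462 CPM in WT NKp46, 655, 610 and 550 in WT ILC1, 702, 783 and 726 in WT DN and 958, 1077 and 853 in WT CCR6. The CCR6 libraries were highest, although the median member was lower in CCR6 than in DN or ILC1. Rpl10 was higher in CCR6 than in NKp46 by 0.95 ± 0.108 (adjusted p = 2.9e-06). It was lower in ILC1 than in CCR6, at -0.67 ± 0.108 (adjusted p = 9e-05), and lower in DN than in CCR6, at -0.39 ± 0.108 (adjusted p = 0.034). In DKO cells it measured 646, 649 and 563 CPM in NKp46, 720, 660 and 667 in ILC1, 804, 761 and 784 in DN and 965, 893 and 752 in CCR6. The DKO CCR6 and DN ranges overlapped, and CCR6 exceeded NKp46 by 0.49 ± 0.108 (adjusted p = 0.007). Genotype differences of Rpl10 were -0.15 in CCR6 (adjusted p = 0.69) and 0.32 in NKp46 (adjusted p = 0.11).

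Rps27 and its relatives took different courses. Rps27, a zinc finger protein of the small subunit, measured 893, 979 and 904 CPM in WT NKp46 and 1561.5, 1684.9 and 1371.9 in WT DN, so that all DN libraries were higher (0.73 ± 0.121, adjusted p = 0.0009). Its genotype difference in NKp46 was 0.23 ± 0.121 (adjusted p = 0.36). Rps27rt (chromosome 9, 114982366 to 114982739, minus strand, 1 exon) lay at 109 to 126 CPM in WT NKp46 and 173 to 231 in WT DN (0.73 ± 0.175, adjusted p = 0.022). Between WT ILC1 and WT CCR6, Rps27rt was higher by 0.87 ± 0.176 (adjusted p = 0.001), and Rps27 lay 0.34 ± 0.121 higher without a call (adjusted p = 0.054). The difference between these 2 genes was not tested, and they could share reads.

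Rps27l (chromosome 9, 66946086 to 66949516, plus strand), a paralogue known as a target of the tumour suppressor p53, ran the other way in ILC1. It measured 38.9, 38.6 and 38.7 CPM in WT ILC1, 53.8, 51.9 and 58.2 in WT NKp46, 51.9, 61.6 and 58.5 in WT DN and 75, 70.6 and 65.2 in WT CCR6. ILC1 libraries were the lowest and CCR6 libraries the highest, and those of NKp46 and DN overlapped. The difference of ILC1 from CCR6 was -0.86 ± 0.12 (adjusted p = 1.5e-05) and that from NKp46 -0.50 ± 0.119 (adjusted p = 0.0083). In DKO cells Rps27l measured 60.5, 67.2 and 79.1 CPM in NKp46, 49.7, 47.0 and 53.0 in ILC1, 71.6, 81.8 and 81.6 in DN and 81.3, 81.6 and 80.3 in CCR6. In every population all DKO libraries lay above all WT libraries. The difference was called in DN (0.45 ± 0.119, adjusted p = 0.039) and lay at 0.33 in NKp46 (adjusted p = 0.13), 0.37 in ILC1 (adjusted p = 0.18) and 0.21 in CCR6 (adjusted p = 0.52). The DN call was lost without any 1 of the 6 DN libraries, at an adjusted p of 0.059 to 0.27, while the average over populations stayed between 0.32 and 0.37.

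Rpl39l, a paralogue of Rpl39 known from male germ cells, was counted in few reads. It had 0 counts in the 3 WT ILC1 libraries, for which 3 counts over the group correspond to 0.0362 CPM. It measured 2.98, 3.87 and 2.08 CPM in WT CCR6, 0.49, 0.452 and 0.0979 in WT NKp46 and 0.40, 0 and 0.516 in WT DN. CCR6 libraries were highest, and NKp46 and DN overlapped. In DKO it measured 0, 0.0358 and 0 CPM in NKp46, 1.08, 0.224 and 0.278 in ILC1, 0.859, 0.319 and 0.267 in DN and 0.741, 0.612 and 0.344 in CCR6. Summed counts in WT and DKO were 0 and 48 for ILC1, 41 and 1 for NKp46, 649 and 94 for CCR6, and 38 and 70 for DN. The mean of the DKO ILC1 libraries was 14.5 times the floor of 3 counts over the WT ILC1 group (edgeR adjusted p = 0.049 against WT ILC1). Library 1, at 1.08 CPM, raised that mean above the 0.224 and 0.278 of the others. The WT CCR6 mean was 82.3 times the same floor (adjusted p = 0.00044 against WT ILC1). Both ratios leave out the spread between libraries. The first call was lost without any 1 of the 6 ILC1 libraries, at an adjusted p of 0.059 to 0.15. In CCR6 the DKO libraries lay below the WT libraries without overlap (-2.39 ± 1.07, adjusted p = 0.33), and in NKp46 likewise (adjusted p = 0.083). The genotype effect on Rpl39l differed among populations at an adjusted p of 0.026, which was 0.056 without WT CCR6 library 2, 0.051 without DKO CCR6 library 2 and 0.053 without DKO ILC1 library 1.

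**Figure D4:**
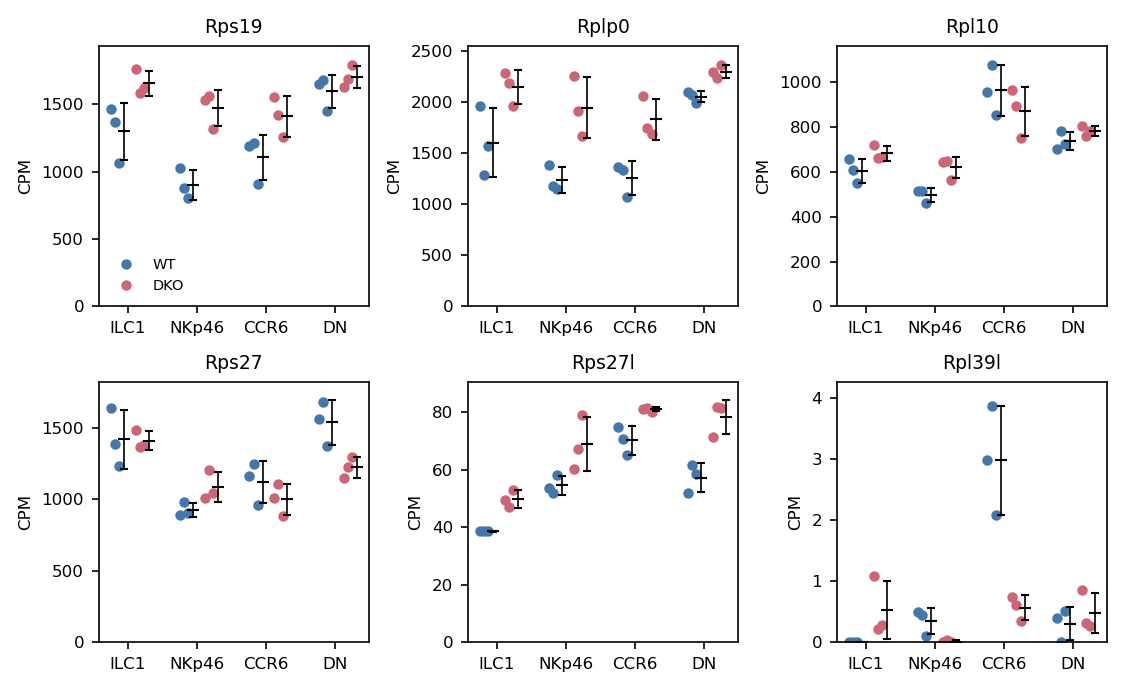
CPM of Rps19, Rplp0, Rpl10, Rps27, Rps27l and Rpl39l in each of the 24 libraries, by sorted population and genotype; each point is 1 library, the bars are the mean and SD of 3, and every axis starts at 0. Rps19 and Rplp0 are higher in DKO than in WT NKp46 libraries. Among the WT libraries Rpl10 and Rpl39l are highest in CCR6, and Rps27l is lowest in ILC1. For Rpl10 the WT and DKO CCR6 libraries overlap.

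Core genes with and without a start-site tract were then set side by side. Of the core genes with a window, 7 of 27 with a pyrimidine tract and 11 of 30 without one were called higher in DKO NKp46 cells, and both sets had a median of 0.40. In WT DN against WT NKp46, 23 of 27 and 28 of 30 were called, with medians of 0.69 and 0.68. A window of these letters does not show which start site the cells used.

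Genes that act with the ribosomal proteins were read from lists in the same comparisons. Rack1, a scaffold on the small subunit head that the symbol rule does not take, measured 759, 663 and 630 CPM in WT and 973, 935 and 839 in DKO NKp46, without overlap (0.42 ± 0.106, adjusted p = 0.023). It also rose in CCR6 (0.39 ± 0.106, adjusted p = 0.037) and was higher in WT DN than in WT NKp46 (0.55 ± 0.106, adjusted p = 0.0039). Fau, which encodes a small subunit protein fused to a ubiquitin-like domain, was higher in WT ILC1 and WT DN than in WT NKp46 (0.85 ± 0.134, adjusted p = 0.00016, and 0.68 ± 0.134, adjusted p = 0.0045), and lay 0.24 higher in DKO NKp46 (adjusted p = 0.4). A fixed list of 17 members included genes of the stalk, the head and the nascent chain surface but was not confined to them. Of these 17, 5 rose in DKO NKp46, and 15 were higher in WT ILC1 and 16 in WT DN than in WT NKp46. The counts over all 90 members tested were 27, 68 and 73.

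These lists are read against the shares of all genes called in each comparison. The shares were 1.99% higher and 2.17% lower in DKO NKp46, 1.93% and 2.04% in DKO CCR6, and 4.81% and 5.99% in DKO averaged over populations. Against WT NKp46 they were 2.25% and 0.723% in WT DN and 5.13% and 5.6% in WT ILC1. Of 40 ribosome biogenesis genes, 2 rose in DKO NKp46 cells, Dkc1 (0.47, adjusted p = 0.028) and Nhp2 (0.62, adjusted p = 0.04), both parts of the complex that pseudouridylates rRNA, and 0 fell. In CCR6 cells 5 rose, among them Rrp9 (0.66, adjusted p = 0.0039) and the nucleolar GTPase Gnl3 (0.93, adjusted p = 0.034), and averaged over populations 10 rose and 0 fell. None was called between WT DN and WT NKp46, and 1, nucleolin (Ncl, 0.54), was higher in WT ILC1. A list of 39 genes held initiation and elongation factors and also Pabpc1, Pabpc4, Tpt1, Naca and Btf3. Of these 39, 1 rose in DKO NKp46, Eef1b2 (0.58 ± 0.133, adjusted p = 0.012), a subunit of the exchange factor of eEF1A. In WT DN against WT NKp46, 5 were higher (Eef1g, Eef1b2, Pabpc1, Eef2 and Naca, by 0.42 to 0.72), and in WT ILC1 7 were higher and 1 lower. Of 15 genes of RNA polymerase I and its factors, 0 were called by genotype within any population. Of 77 mitochondrial ribosomal protein genes tested, 0 were called in DKO NKp46, 1 was higher in WT DN, and 3 were higher and 5 lower in WT ILC1 than in WT NKp46. Of 52 nuclear genes of oxidative phosphorylation, 0, 1 and 9 were higher and 0 lower in the same 3 comparisons.

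Among 20 genes of mTORC1 and the control of TOP mRNAs, 1 rose in DKO NKp46 cells and 0 fell. This was Ddit4 (REDD1), an inhibitor of mTORC1. It measured 6.13, 4.6 and 5.97 CPM in WT and 40.7, 66.5 and 34.1 in DKO NKp46, without overlap (log2 3.08 ± 0.335, adjusted p = 4.1e-06). It also rose in CCR6, from 16.2, 7.22 and 9.87 to 81.8, 94.3 and 73.0 CPM (2.9, adjusted p = 4.3e-06), and in DN, from 31, 24.5 and 20.8 to 79.3, 112 and 82.4 (1.84, adjusted p = 0.001). In ILC1 it measured 14.8, 5.54 and 8.89 CPM in WT and 19.1, 18.4 and 15.6 in DKO and was not called. The effect on Ddit4 in NKp46 exceeded that in ILC1 by 2.24 ± 0.447 (adjusted p = 0.023). Eif4ebp1, the translation repressor 4E-BP1, rose in DKO CCR6 cells (1.21 ± 0.226, adjusted p = 0.0017).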

How the data were processed

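RNA was measured in 24 libraries that began from 10 ng of RNA (integrity number over 8) and were amplified by 12 to 15 cycles of PCR without named molecular identifiers, per the labels' protocols. The authors deposited whole-number read counts per Ensembl gene. The submitters' processing notes name the build mm10 and the tools featureCounts 2.0.3, STAR 2.7.9a, Salmon 1.5.2, R 4.1, DESeq2, Subread and bcl2fastq. The counting tool, the strand setting, the handling of reads that match several genes, and the annotation were not given in the sources used here. The population in 1 title, which drops a character, was read as NKp46 from the description.

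The table had 55774 rows, of which 455 carried 168 repeated Ensembl IDs, and 1 row per ID was kept. There were 0 unused sample columns. Coordinates came from GENCODE mouse release 21 (GRCm38), and start windows from RefSeq. Counts were scaled by the trimmed mean of M values, filtered by group and fitted with edgeR 4.0.16 in R 4.3.3, as a robust quasi-likelihood model of all 24 libraries with 1 mean per group (16 residual degrees of freedom, common biological coefficient of variation 0.573, 21286 genes). Benjamini-Hochberg adjustment ran over all of these genes. Standard errors came from the fold change and its F statistic. CPM values use the scaled library sizes, shares use raw counts, and the fit was tested on simulated data. Intervals and floors cover counting error only.

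Alternatives were other scalings (DESeq2's size factors, the trimmed mean without ribosomal protein genes, library size alone), no filter, a replicate block, limma 3.58.1 (voom), DESeq2 1.42.0, a fit of only the compared groups and each library left out. The 3 differences of genotype effects, and the fit of only the compared groups without WT ILC1 library 2, were chosen after seeing the data. The members and the lists were chosen with earlier results of these data known. Named are the paralogues and their parents, and a list of members that includes genes of the stalk, head and nascent chain surface. Also named are members with the smallest adjusted p or largest change in each comparison and ribosomal proteins outside the rule (such as Fau and Rack1). Up to 3 genes of each other list per comparison are added. Results of some genes that this takes are not reported here.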

Additional observations from a re-analysis of the deposited data

Results flagged for a closer look

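Tests of the difference between genotype effects picked out 3 members. For Rpl39l, the effect differed among the 4 populations at an adjusted p of 0.026 (edgeR's quasi-likelihood test), and the fitted effect in NKp46 minus that in ILC1 was -12.05 on the log2 scale (adjusted p = 0.02). With summed counts of 0 in WT ILC1 and 1 in DKO NKp46, that size depends on the prior count and is no measure of a fold. The 3 DKO ILC1 libraries lay above the 3 WT ILC1 libraries, and the 3 DKO NKp46 libraries below the 3 WT NKp46 libraries. For Rpl36a-ps1 the effect in NKp46 exceeded that in DN by 1.38 (adjusted p = 0.046), and for Rps28 by 0.80 (adjusted p = 0.047). For both genes all 3 DKO NKp46 libraries lay above all 3 WT NKp46 libraries, and the DN groups overlapped.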

How the results depend on the processing

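Counts of called members under alternatives, where they moved by more than 1.5 times, were as follows, and the cause was not tested. For DKO against WT in ILC1 (1 called), the count was 0 with DESeq2's size factors, with the trimmed mean without ribosomal protein genes, with the replicate block, with voom and with only the compared groups, and 2 by library size alone. In NKp46 (27), it was 46 with the replicate block, 42 with DESeq2 (1 of them lower) and 45 with only the compared groups. In CCR6 (1), it was 4 with the block, 9 with voom, and 2 with DESeq2 or only the compared groups. In DN (1), it was 0 by library size alone and without the filter. Averaged over populations (13), it was 27 by library size, 28 with the block, 26 with voom and 20 with DESeq2. For any difference among populations (1), it was 4 by library size, 12 with the block, 0 with voom and 18 with DESeq2. For WT ILC1 against NKp46 (70), it was 2 with only the compared groups and 19 when WT ILC1 library 2 was also left out. For CCR6 against NKp46 (5), it was 12 by library size, 3 without the filter, 13 with the block, 10 with voom, 15 with DESeq2 and 8 with only the compared groups. For DN against CCR6 (53), it was 34 without the filter. For ILC1 against CCR6 (46), it was 23 without the filter, 6 with only the compared groups and 10 also without WT ILC1 library 2. For DN against ILC1 (2), it was 12 by library size, 8 with the block, 4 with DESeq2 and 0 with only the compared groups. In DKO cells, ILC1 against NKp46 (7) gave 3 without the filter and 14 with the block or DESeq2, CCR6 against NKp46 (2) gave 1 with only the compared groups, and DN against NKp46 (0) gave 2 with DESeq2. The effect in NKp46 minus that in ILC1 (1) gave 0 with voom or only the compared groups and 4 with DESeq2. Minus that in DN (2) it gave 0 with DESeq2's size factors, 13 by library size, 26 with the block, 6 with voom, 22 with DESeq2 and 38 with only the compared groups. With single libraries left out, the counts ranged from 0 to 1 (ILC1), 4 to 37 (NKp46), 0 to 3 (CCR6), 0 to 1 (DN), 8 to 24 (average) and 0 to 10 (any difference) for genotype. They ranged from 56 to 73 (ILC1 against NKp46), 2 to 10 (CCR6 against NKp46), 57 to 77 (DN against NKp46), 19 to 62 (DN against CCR6), 24 to 58 (ILC1 against CCR6) and 1 to 10 (DN against ILC1) in WT. In DKO against NKp46 they ranged from 0 to 15 (ILC1), 0 to 3 (CCR6) and 0 to 0 (DN), and for the effect in NKp46 minus that in another population from 0 to 9 (ILC1), 0 to 0 (CCR6) and 0 to 17 (DN). A group with a library left out is assumed to vary like the other groups.

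Medians of the members kept their sign under every scaling, while the median of all genes moved by more than 0.1 only for WT ILC1 against WT CCR6 by library size (-0.13 against -0.02). Of 3854 values for 221 single gene results, 3279 kept their direction and side of the threshold, 526 lost the call, 42 gained it and 7 reversed. Rpl36-ps4, with a few counts per library, turned negative without DKO NKp46 library 2. Its values with single libraries left out ranged from -4.01 to 1.68 in NKp46, -0.85 to 0.58 in the average, and, for the effect in NKp46 minus that in ILC1 and in DN, from -4.21 to 1.49 and -3.74 to 1.95. With voom it was -0.14 in the average and -0.25 for NKp46 minus ILC1. Rpl39l in DN ranged from -0.06 to 1.26. Deviations of same-numbered DKO and WT libraries of a population had a median correlation of 0.0115 (12 pairs, 0 over 0.1). Those of 2 populations had a median of 0.037 (36 pairs, -0.026 to 0.077, 0 over 0.1). Different-numbered libraries had medians of -0.005 (24 pairs) and -0.0175 (72 pairs, -0.097 to 0.047). Such small values over all genes tested do not settle whether libraries of 1 number belong together. The labels do not say what a number shares, and the replicate block is read as a grouping by number. Library 3 had the lowest member share in all 4 WT populations, and in DKO in NKp46 and CCR6.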

Other observations

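The paralogues not described above were as follows. Rpl7l1, related to Rpl7, measured 104 to 141 CPM in WT ILC1, 148 to 167 in WT NKp46, 149 to 162 in WT CCR6 and 124 to 164 in WT DN, and it was 126 to 147 in DKO NKp46, below every WT NKp46 library. Rpl22l1, the paralogue of Rpl22, lay at 51.6 to 77.9 CPM in WT NKp46 and 84.3 to 94.3 in WT DN, without overlap. Rpl36al lay at 13.4 to 13.9 CPM in WT CCR6 and 7.32 to 10.3 in WT NKp46, and at 10.6 to 11 in WT DN against 6.54 to 7.65 in DKO DN. None of these differences passed the threshold in edgeR. Rpl10l, known from the testis, had counts in 1 library, and Rpl3l, known from muscle, reached at most 0.326 CPM.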
